A study of Drosophila melanogaster with 8 samples.

Results

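Neuropeptide receptors are the G protein-coupled receptors through which peptide hormones and peptide transmitters act on their target cells. A list of 36 such receptor genes of Drosophila melanogaster was matched by FlyBase identifier to a gene expression table of adult heads, and all 36 were among its 14622 identifiers. Its rule names receptors of neuropeptides and uses no expression value, although the list was drawn up with earlier results of these data known. It leaves out CCHa2-R, the receptor of CCHamide-2. By family it holds 29 receptors of the rhodopsin type (class A), 5 of the secretin type (class B: Dh31-R, Dh44-R1, Dh44-R2, hec and Pdfr) and 2 large receptors with leucine-rich repeats (Lgr1 and rk).

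The table came from RNA sequencing of heads of 3-day-old males kept at 18 °C, with 4 libraries of an Adar mutant and 4 of a wild type. The mutant, called EA here, has the genotype y, sc, AdarE374A. According to the methods of the study, it was made with CRISPR and carries a point mutation that removes the catalytic activity of the editing enzyme ADAR while the protein is kept, beside a synonymous base change in the same gene. The wild type, WT, is white Canton-S, the strain to which the mutant had been backcrossed. The groups thus differ in the y, sc, w and Adar alleles and in the sequence linked to them, and the effects of these cannot be told apart. The labels do not say whether the libraries of a group came from separate cultures or flies, so each p-value below measures only the spread between these libraries.

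Neuropeptides are cut from larger precursor proteins, packed into dense core vesicles and released outside as well as at synapses, so that a single peptide can reach many cells. Their receptors signal through G proteins to second messengers such as cyclic AMP and calcium. In the fly head they are found on neurons, on glia and on the fat body that lines the head capsule, and they tune feeding, water balance, sleep, the circadian clock, courtship and moulting. ADAR converts adenosine to inosine in double-stranded RNA, and many of its targets in flies are transcripts of the nervous system.

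Values are read counts per gene that had been divided by a size factor for each library, called normalised read counts here. The libraries held 12517490 to 24342035 reads in EA and 9930607 to 19173154 in WT. Where 4 values are given for a group, they are in the order of its replicates 1 to 4. A gene with a mean normalised read count of at least 10 over the 8 libraries was tested with limma on log2(value + 1), and a gene was called when its p-value, adjusted over the 10347 genes tested by the Benjamini-Hochberg method, was under 0.05. A log2 fold change is EA over WT on that scale, which understates the change of low genes. In whole heads, fewer cells of a type and less RNA per cell cannot be told apart. As checks of the labels, all 18 neuron markers and all 17 eye markers in the table passed the filter while none of the 5 accessory gland markers did, and w, which is mutated in white flies, had 134, 146, 189 and 173 in EA, against 3.97, 0, 1.08 and 1.38 in WT. Adar itself had 6849.6, 5013, 3534 and 4722 in EA, against 4538, 3679, 4458 and 3523 in WT, and its transcript level does not check an allele that keeps the transcript. A single library stood apart in neuronal genes, EA replicate 3, which was the lowest EA library in all 18 neuron markers and in most of the receptors, and results are given without it below.

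None of the 36 receptor genes was called between EA and WT. All 36 passed the filter on low values, 6 of them with a mean under 50 (AstA-R2, CapaR, CCAP-R, PK2-R1, PK2-R2 and RYa-R), and each had reads in every library. The smallest adjusted p was 0.222 (limma), for Pdfr. The edgeR quasi-likelihood test and DESeq2 on whole reads also called 0 of the 36, beside 126 and 532 of all genes tested. Over all genes tested, limma called 125 (1.21%) and DESeq2 5.14%, so 0 of 36 is close to the background rate and is not in itself a result about these genes. CCHa2-R, outside the list, was not called either, with 59.6, 59.8, 18.6 and 60.2 in EA, against 56.9, 56.8, 44.2 and 42.9 in WT (log2 fold change -0.15, limma adjusted p = 0.926). EA replicate 3 was its lowest library.

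In 13 receptors the log2 fold change was above 0 and in 23 it was below 0, with a median of -0.02 over the 36, against -0.0029 over all genes tested, of which 50.7% were below 0. At an unadjusted p under 0.05 there were 2 receptors higher in EA (AkhR and Pdfr), beside a background of 7.0% of all genes tested, and 1 lower in EA (Dh44-R2), beside a background of 5.65%. There was no receptor in which all 4 libraries of one group lay above all 4 of the other, while 7.99% of all genes tested had such groups. The log2 fold change was within 0.2 of 0 in 19 receptors (52.8%, against 67.4% of all genes tested) and beyond 0.5 in 2 (5.56%, against 10.6%), which were AkhR and AstA-R2.

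A p-value that misses the threshold does not show that levels were equal. The intervals, which are not adjusted for the number of genes, give the range of differences that the values of each gene allow. The 95% interval of the log2 fold change lay within 1 of 0 in 34 of the 36 receptors, the exceptions being the scarce AstA-R2 (-1.43 to 0.26) and CapaR (-1.33 to 0.52). It lay within 0.5 of 0 in 15 receptors and included 0 in 33. The narrowest interval was that of Pdfr (0.08 to 0.53), and the intervals whose bounds both lay closest to 0 were those of Lgr1 (-0.25 to 0.24), SIFaR (-0.24 to 0.27) and CCKLR-17D3 (-0.27 to 0.26).

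**Figure D1:**
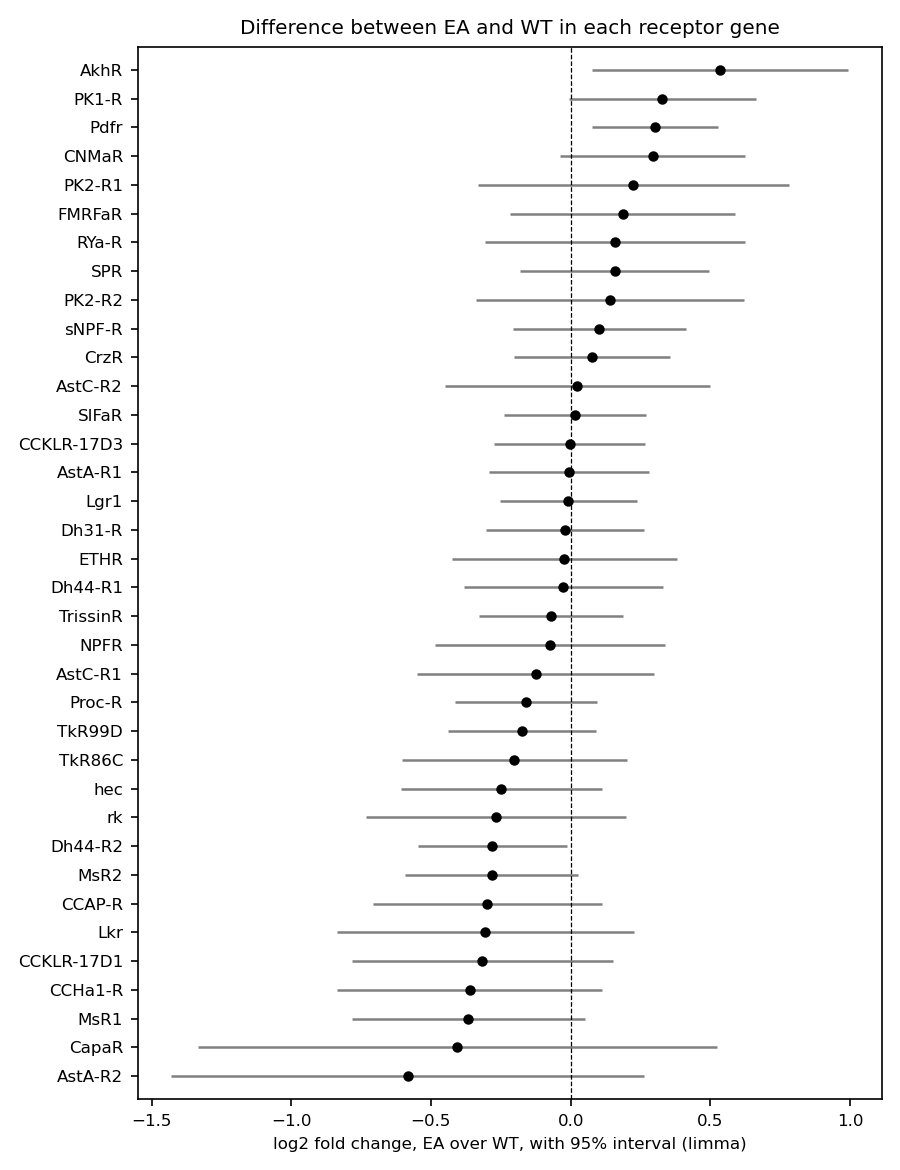
Log2 fold change of each of the 36 receptor genes, EA over WT, with its 95% interval from limma (points and horizontal lines), ordered by size. The intervals include 0 in 33 genes, and those of AkhR and Pdfr lie above 0 and that of Dh44-R2 below 0 before adjustment.

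AkhR encodes the receptor of adipokinetic hormone, which mobilises stored lipid and sugar from the fat body. Its normalised read counts were 256, 197, 306 and 389.6 in EA, against 152, 199, 229 and 195 in WT. EA replicate 4 was the highest library and 3 of the EA libraries lay above every WT library, but EA replicate 2 lay among the WT libraries. The log2 fold change was 0.54 (95% interval 0.08 to 0.99, unadjusted p = 0.0264, limma adjusted p = 0.305). Without EA replicate 2 it was 0.70 with an adjusted p of 0.0982, the smallest reached by any receptor under any alternative. Fat body markers were mostly higher in EA too, with 8 of the 10 tested at a log2 fold change above 0 (median 0.51). So were 8 of 8 haemocyte markers (median 0.50) and 11 of 11 muscle markers (median 0.21), while neuron markers had 9 above 0 and 9 below. Of the fat body markers limma called 1, beside a background of 1.21% of all genes tested. This was Ilp6 (1.09, limma adjusted p = 0.0212, and 0.0011 to 0.093 when 1 library at a time was left out). The summed level of the fat body list was 60556 to 117508 in EA, against 41699.7 to 55233 in WT. A sum follows the most abundant genes, and the mean log2 level of the 10 tested markers overlapped between the groups. It was 9.48 to 10.24 in EA and 8.64 to 9.63 in WT, with EA replicate 2 below WT replicate 2. EA replicate 2 had the lowest sum of that list among the EA libraries as it had the lowest AkhR level. Elsewhere the orders differed: the highest EA sum was in EA replicate 3 and the highest AkhR level in EA replicate 4. WT replicate 3 had the lowest sum of all libraries but the highest AkhR level of WT. No marker of the list was at 0 in all libraries. Whether the level of AkhR moves with the amount of fat body in a library was not tested.

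The transcript of the AkhR ligand was uneven between libraries. Akh, which is made in the corpora cardiaca, had 461, 87.9, 441 and 16.6 in EA, against 22.5, 352, 146 and 729 in WT. Low and high libraries occurred in both groups, which overlapped. The cause of this unevenness was not tested.

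Pdfr encodes the class B receptor of the clock peptide PDF, which keeps clock neurons in step. It had 903, 832, 802 and 852 in EA, against 652, 701, 812 and 598 in WT. WT replicate 3 lay within the EA range and the other WT libraries lay below all EA libraries. The log2 fold change was 0.30 (95% interval 0.08 to 0.53, unadjusted p = 0.0138, limma adjusted p = 0.222), and its adjusted p was 0.132 to 0.437 when 1 library at a time was left out. Pdfr lies on the X chromosome, 0.764 Mb from Adar in the BDGP6.54 assembly, closer than any other receptor of the list, so an effect of the mutation on it and one of sequence linked to the mutation cannot be told apart. The precursor gene Pdf had 236, 254, 159.7 and 196 in EA, against 291, 313, 205 and 300.4 in WT, with a fold change of -0.39 on the log2 scale (limma adjusted p = 0.401), of the opposite sign to the receptor.

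Dh44-R2 encodes 1 of the pair of class B receptors of DH44, a diuretic hormone related to vertebrate corticotropin-releasing factor. It had 429, 377, 321 and 343 in EA, against 389, 488, 492 and 415 in WT. EA replicate 1 lay above WT replicates 1 and 4, so the groups overlapped, while the other 3 EA libraries were below all WT libraries. The log2 fold change was -0.28 (95% interval -0.55 to -0.01, unadjusted p = 0.0408, limma adjusted p = 0.364). Of its exon bases in BDGP6.54, 16.4% overlap fdl and 16.8% overlap CG34234, both on the opposite strand, and since strand-specific counting is not given in the sources used here, reads of these genes cannot be told apart there.

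**Figure D2:**
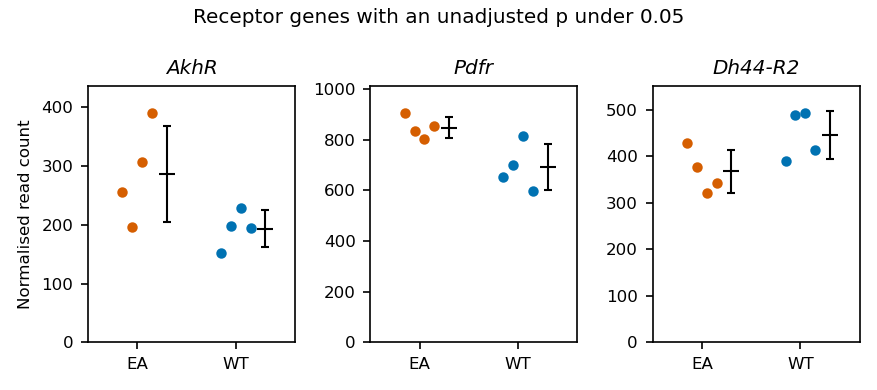
Normalised read counts of AkhR, Pdfr and Dh44-R2 in each library (points, EA left of WT, linear axes from 0), with the mean and SD of each group of 4 (black). In each gene at least 1 library lies within the range of the other group.

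To compare levels between genes, normalised read counts were divided by the length of the merged exons in BDGP6.54, which is not the build the files were counted on. The mean level in WT covered a 25.6-fold range. Pdfr was at the top with 182 ± 9.09 in EA and 148 ± 19.6 in WT per kb (SD, n = 4 each), followed by MsR1 with 107 ± 20.7 in EA and 138 ± 30.1 in WT, Dh44-R2 with 112 ± 14.3 in EA and 136 ± 15.9 in WT, Dh31-R with 131 ± 19.2 in EA and 133 ± 14.1 in WT and SPR with 148 ± 29.6 in EA and 131 ± 12.5 in WT. These first 5 WT means differed by less than the SD of MsR1 alone, so their order is not resolved. Dividing by the longest transcript instead moved no receptor by more than 3 places.

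At the low end stood AstA-R2 with 3.85 ± 1.55 in EA and 5.77 ± 1.32 in WT per kb, CapaR with 6.80 ± 2.96 in EA and 8.42 ± 1.51 in WT, PK2-R2 with 9.82 ± 1.09 in EA and 9.00 ± 2.13 in WT, RYa-R with 14.2 ± 2.54 in EA and 12.6 ± 1.81 in WT and PK2-R1 with 16.8 ± 4.65 in EA and 14.2 ± 3.28 in WT (SD, n = 4 each). In the order of WT means, 1 of the 35 pairs of neighbours was further apart than the sum of their SDs, so the order gives ranges of level and not single places. CapaR, the receptor of the capa peptides, is best known from the Malpighian tubules of the abdomen.

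**Figure D3:**
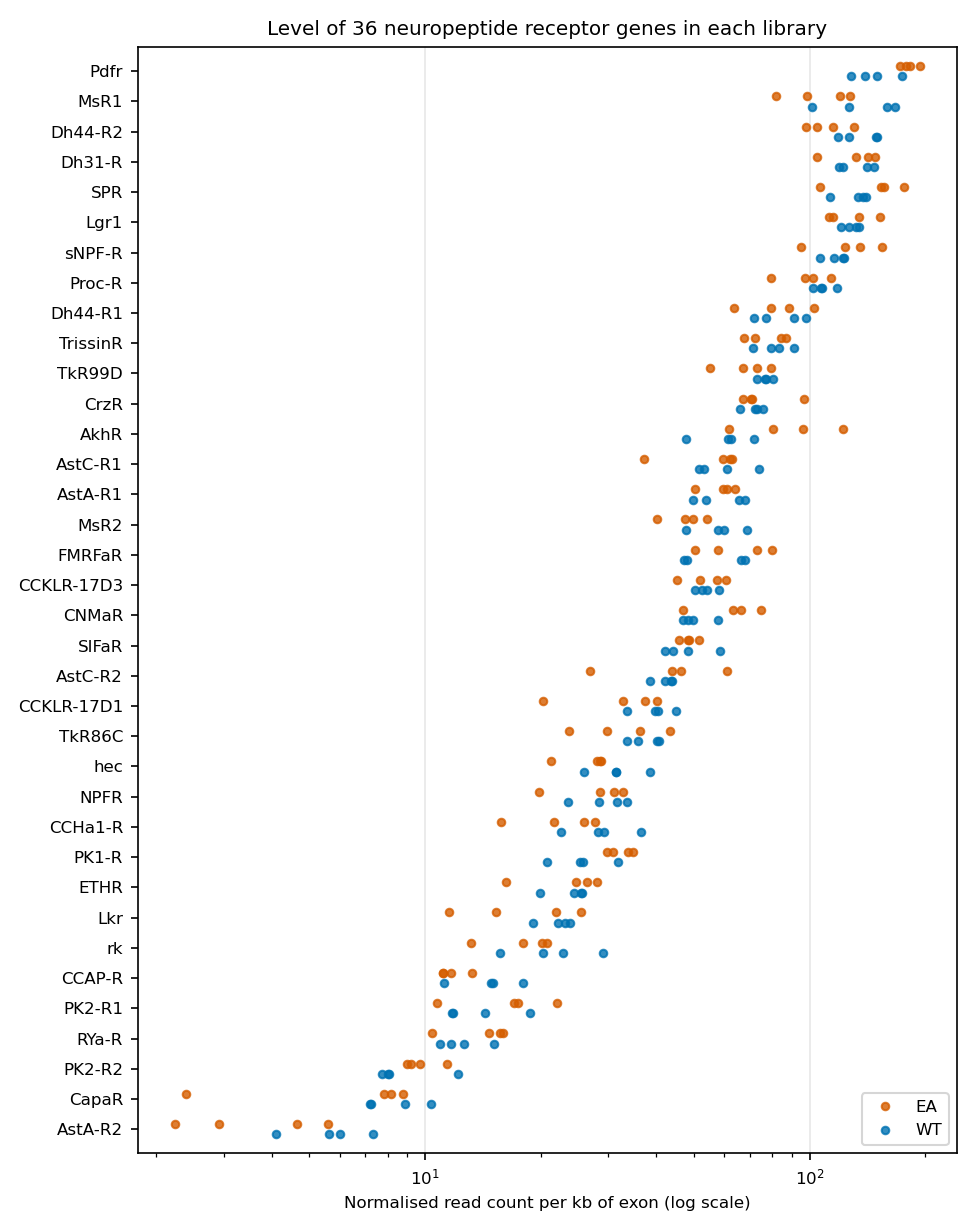
Normalised read count per kb of exon of the 36 receptor genes in every library (log axis; EA points above WT points in each row), ordered by the WT mean. The points of EA and WT interleave in every row, over a 25.6-fold range of WT means from AstA-R2 to Pdfr.

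The 10 receptors grouped under feeding and metabolism had 4 log2 fold changes above 0 and 6 below 0, with a median of -0.01. The 2 receptors of allatostatin A, a peptide that reduces feeding, are related to the galanin receptors of vertebrates and stood far apart in level, with AstA-R1 at 58.7 ± 5.76 in EA and 59.3 ± 8.80 in WT per kb (SD, n = 4 each) and AstA-R2 last of the list. AstA-R1 had 226, 236, 187 and 221 in EA, against 251, 199, 243 and 185 in WT. AstA-R2 had 6.87, 5.27, 10.9 and 13.2 in EA, against 13.2, 14.2, 17.3 and 9.69 in WT, from 6 to 23 whole reads in the EA libraries and 9 to 16 in the WT libraries. In AstA-R1 the groups overlapped almost fully (log2 fold change -0.01, 95% interval -0.29 to 0.28). In AstA-R2 the lowest values were in EA replicates 1 and 2 but EA replicates 3 and 4 lay above WT replicate 4, and the log2 fold change of -0.58 had the second widest interval of the list (limma adjusted p = 0.593).

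CCKLR-17D1 and CCKLR-17D3 are receptors of drosulfakinin, the cholecystokinin-like satiety peptide encoded by Dsk, and lie 37.9 kb apart on X. CCKLR-17D1 had 104, 128, 64.5 and 119 in EA, against 107, 126, 143 and 129 in WT. CCKLR-17D3 had 116, 128, 101 and 135 in EA, against 129.7, 117, 112 and 120.4 in WT. Both were lowest in EA replicate 3. Per kb of exon, the first stood to the second at a mean ratio of 0.598 ± 0.106 in EA and of 0.743 ± 0.129 in WT (SD, n = 4 each). The log2 fold changes were -0.32 and -0.004, with limma adjusted p-values of 0.60 and 0.996.

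The neuropeptide Y-like system of the fly has the long peptide NPF, with its receptor NPFR, and the short sNPF, with sNPF-R. NPFR ranged over 63.5 to 105 in EA and 75.8 to 108 in WT (log2 fold change -0.08), and sNPF-R over 452 to 734 in EA and 505 to 585 in WT (0.10). Both had their lowest value in EA replicate 3. CCHa1-R, the receptor of CCHamide-1, ranged over 41.6 to 73.3 in EA and 59.5 to 96.6 in WT (-0.36, 95% interval -0.83 to 0.11). CNMaR, the receptor of CNMamide, ranged over 127 to 202 in EA and 127 to 156 in WT (0.29, 95% interval -0.04 to 0.63). RYa-R, the receptor of RYamides, had 36.7, 36.0, 24.1 and 33.9 in EA, against 25.1, 34.7, 27.0 and 29.1 in WT, and the groups overlapped (0.16). These 5 receptors had limma adjusted p-values of 0.461 (CNMaR) and above.

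Among the 12 receptors grouped under water balance, diuresis and visceral muscle, 11 had a log2 fold change below 0, beside 50.7% of all genes tested. AstC-R2 alone lay above 0, the median was -0.14 and 0 of 12 were called. Lgr1 (-0.01), Dh31-R (-0.02) and Dh44-R1 (-0.03) were below 0 by little. EA replicate 3 was the lowest EA library in 10 of these 12 genes, and without it the split was 4 above and 8 below 0 with a median of -0.04.

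MsR1 and MsR2, 21.7 kb apart on 3L, are receptors of myosuppressin, which slows muscle of the gut and heart. MsR1 had 450.3, 349, 426 and 289 in EA, against 359.9, 564, 448 and 589.7 in WT (log2 fold change -0.37, 95% interval -0.78 to 0.05). MsR2 had 146, 158, 117 and 138 in EA, against 139, 169, 201 and 174 in WT (-0.28, 95% interval -0.59 to 0.03). In MsR1, EA replicates 1 and 3 exceeded WT replicate 1, and in MsR2, EA replicates 1 and 2 did. The limma adjusted p-values were 0.462 and 0.445. The WT libraries themselves split in MsR1, with replicates 2 and 4 high and replicate 1 low. The log2 fold change of MsR1 was -0.11 without WT replicates 2 and 4 (limma adjusted p = 0.851) and -0.51 without WT replicate 1 (limma adjusted p = 0.265). Per kb of exon, the mean ratio of MsR1 to MsR2 was 2.27 ± 0.607 in EA, against 2.38 ± 0.467 in WT (SD, n = 4 each), a difference smaller than either SD.

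The diuretic hormone receptors Dh44-R2, Dh31-R and Dh44-R1 ranked 3, 4 and 9 of 36 by level per kb in WT. Dh31-R, the receptor of the calcitonin-like DH31, had 485, 465, 342 and 433 in EA, against 464, 401, 484 and 391 in WT. Dh44-R1, the other DH44 receptor, had 197, 254, 158 and 219 in EA, against 242, 191, 225 and 178 in WT. Both were again lowest in EA replicate 3, and the log2 fold changes were -0.02 (95% interval -0.30 to 0.26) and -0.03 (-0.38 to 0.33). Per kb of exon, the mean ratio of Dh44-R1 to Dh44-R2 was 0.749 ± 0.14 in EA, against 0.63 ± 0.135 in WT (SD, n = 4 each), overlapping between the groups.

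AstC-R1 and AstC-R2, 57.7 kb apart on 3L, are receptors of allatostatin C and are related to somatostatin receptors. AstC-R1 had 183, 181, 108 and 173 in EA, against 177, 155, 215 and 150.2 in WT. AstC-R2 had 228, 163, 101 and 173 in EA, against 164, 144, 158 and 163 in WT. The EA libraries were more spread than the WT libraries in AstC-R2, by a coefficient of variation of 31.4% in EA and 6.01% in WT, with EA replicate 1 the highest and EA replicate 3 the lowest of all 8 libraries. Their log2 fold changes were -0.13 and 0.02.

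CapaR had 16.0, 14.9, 4.38 and 14.3 in EA, against 13.2, 18.9, 16.2 and 13.1 in WT, which is 4 to 25 whole reads in the EA libraries and 10 to 19 in the WT libraries. Only EA replicate 3 lay outside the WT range, and the log2 fold change of -0.41 had the widest interval of the list. Lkr, the receptor of leucokinin, which acts on water balance and meal size, ranged over 33.9 to 74.7 in EA and 56.1 to 69.9 in WT (-0.31). Proc-R, the receptor of the muscle-stimulating peptide proctolin, ranged over 299.8 to 429 in EA and 387 to 447 in WT (-0.16). TrissinR, the receptor of the cysteine-rich peptide trissin, ranged over 245 to 316 in EA and 260.0 to 332 in WT (-0.07). Lgr1, the receptor of the glycoprotein hormone made of Gpa2 and Gpb5, ranged over 361 to 492 in EA and 389 to 433 in WT (-0.01), and here EA replicate 3 was the highest of all libraries.

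The 7 receptors grouped under moulting, ecdysis and cuticle had 4 log2 fold changes above 0 and 3 below in these adults (median 0.08). ETHR, the receptor of ecdysis triggering hormone, had 73.3, 127, 112 and 119 in EA, against 90.0, 115, 110.0 and 115 in WT. SIFaR, the receptor of the SIFamide peptide that dampens courtship, lies 11.5 kb from ETHR on 3R and had 259, 244, 231 and 243 in EA, against 243, 223, 295 and 212 in WT. EA replicate 1 was the lowest library for ETHR and not for SIFaR, and the log2 fold changes were -0.02 and 0.02. Of the peptide genes of this group, Crz averaged 284 ± 45.5 in EA and 207 ± 31.6 in WT, Hug 267 ± 24.7 in EA and 285 ± 48.7 in WT and Capa 299 ± 67.0 in EA and 357 ± 24.1 in WT (SD, n = 4 each), while others were scarce. ETH averaged 3.33 ± 3.57 in EA and 2.11 ± 0.44 in WT and Pburs 0.22 ± 0.44 in EA and 0.71 ± 1.02 in WT (SD, n = 4 each), both under the minimum of 10.

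PK2-R1 and PK2-R2, receptors of the hugin pyrokinin, are 4.16 kb apart on 3R. PK2-R1 had 47.0, 60.6, 29.5 and 48.2 in EA, against 51.6, 39.5, 32.4 and 32.5 in WT. PK2-R2 had 26.4, 33.4, 28.4 and 27.0 in EA, against 35.7, 23.7, 22.7 and 23.5 in WT. The groups overlapped in both, with log2 fold changes of 0.22 and 0.14. PK1-R, the receptor of the pyrokinin encoded by Capa, ranged over 74.7 to 87.5 in EA and 52.1 to 79.6 in WT, and only WT replicate 4 reached into the EA range (0.33, 95% interval -0.01 to 0.66, limma adjusted p = 0.406).

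CCAP-R, the receptor of crustacean cardioactive peptide, ranged over 33.2 to 39.6 in EA and 33.4 to 53.7 in WT (-0.30), with only WT replicate 3 within the EA range. CrzR, the receptor of the stress peptide corazonin, ranged over 218 to 314 in EA and 214 to 246 in WT (0.08), with EA replicate 1 above the other 7 libraries. The bursicon receptor gene rk, which is needed for tanning of the cuticle, ranged over 71.1 to 112 in EA and 84.4 to 156 in WT (-0.27). These groups overlapped too, and 9.78% of the exon bases of rk overlap NimC2 on the opposite strand.

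The 7 receptors grouped under clock, courtship and other behaviour, Pdfr and SIFaR among them, had 4 log2 fold changes above 0 and 3 below (median 0.02). SPR, the receptor of myoinhibitory peptides that also binds the male sex peptide, had 658, 582, 397 and 574 in EA, against 523, 497, 421 and 514 in WT. EA replicate 3 was the lowest library, and the other EA libraries lay above all WT libraries. The log2 fold change of SPR was 0.16 (limma adjusted p = 0.757) with all libraries and 0.31 (limma adjusted p = 0.215) without EA replicate 3, but 0.07 without EA replicate 1 (limma adjusted p = 0.913) and 0.09 without WT replicate 3 (limma adjusted p = 0.916). Of the exon bases of SPR, 26.8% overlap frma on the opposite strand.

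The tachykinin system has TkR99D as the receptor of the Tk peptides and TkR86C as that of natalisin. TkR99D had 228, 193, 159 and 210.0 in EA, against 210.4, 232, 222 and 221 in WT. TkR86C had 117, 139.8, 76.6 and 95.8 in EA, against 131, 115, 129 and 108 in WT. Each had its lowest value in EA replicate 3, and the log2 fold changes were -0.18 (95% interval -0.44 to 0.09) and -0.20 (-0.61 to 0.20). FMRFaR, the receptor of FMRFamides, ranged over 212 to 337 in EA and 199 to 286 in WT (0.19). The courtship gene hec, a class B receptor for which no ligand was listed, ranged over 55.8 to 75.2 in EA and 67.9 to 101 in WT (-0.25).

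The spread between libraries was wider in EA than in WT, with a median coefficient of variation over the 36 receptors of 18.7% in EA and 14.3% in WT, and 1 library stood apart. EA replicate 3 was the lowest of the EA libraries in 27 of the 36 receptors (75.0%), against 34.2% of all genes tested, and the lowest of all 8 libraries in 22. The median deviation of the receptors from their own means, on the log2 scale, was 0.13, 0.11, -0.33 and 0.01 in EA, and 0.03, -0.02, 0.09 and 0.00 in WT. The low level in EA replicate 3 was thus shared by most of the list and not set by a few members. Some members went the other way, with deviations there of 0.41 in AkhR, 0.28 in PK1-R and 0.26 in Lgr1.

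Neuron markers moved the same way. Their median deviation was 0.26, 0.15, -0.36 and 0.00 in EA, and 0.13, -0.06, 0.06 and -0.11 in WT, and EA replicate 3 was the lowest EA library in 18 of 18 of them. It was also the lowest EA library in 22 of 23 receptors of small transmitters such as dopamine and serotonin, in 24 of 31 genes of G protein signalling, in 4 of 12 glia markers, in 0 of 11 muscle markers and in 0 of 8 haemocyte markers. Among the 7 receptors of the moulting group it was the lowest EA library in 2, and their summed level was nevertheless lowest there, at 592 in EA replicate 3 and 619.7 to 687 in the other EA libraries, against 625 to 643 in WT. The part that the neuronal content of the libraries has in the receptor values was not tested.

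**Figure D4:**
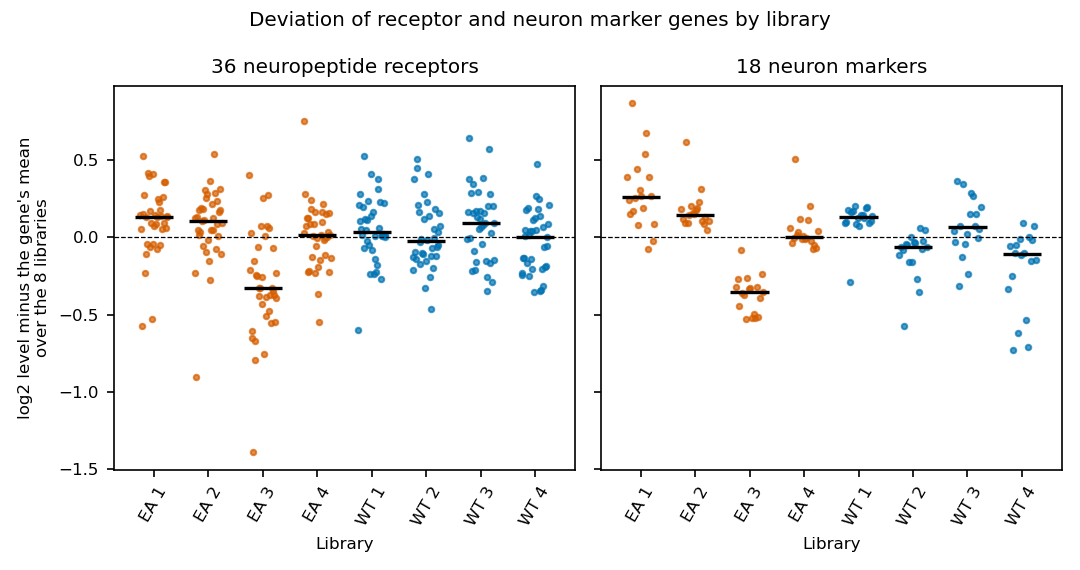
Log2 level of each gene minus its mean over the 8 libraries, for the 36 receptors (left) and 18 neuron markers (right), with EA libraries left of WT libraries; black bars are medians. EA replicate 3 has the lowest median in both panels, -0.33 for the receptors and -0.36 for the neuron markers.

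Without EA replicate 3, 19 receptors had a log2 fold change above 0 and 17 below, with a median of 0.05, and again none was called by limma (smallest adjusted p = 0.145, for CNMaR). At an unadjusted p under 0.05 there were then 4 receptors, all higher in EA, which were CNMaR (log2 fold change 0.43), Pdfr (0.33), SPR (0.31) and sNPF-R (0.23), with limma adjusted p-values of 0.145, 0.215, 0.215 and 0.34. In that fit 7.23% of all genes tested were higher in EA at this threshold, and the library left out had been picked because it was low in these genes, so a shift of the receptors towards EA is built into the choice. AkhR (0.49, unadjusted p = 0.0566) and Dh44-R2 (-0.22, unadjusted p = 0.0988) were no longer among them, with log2 fold changes in the same direction as from all libraries (0.54 and -0.28). The balance of higher and lower receptors therefore turned with 1 library, whereas the absence of called receptors did not.

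Precursor genes of the ligands were compared in the same fit. Of 32 precursors listed, 30 were in the table (Burs and SP were not analysed here) and 26 were tested, with 11 log2 fold changes above 0, 15 below and a median of -0.05. Limma and edgeR each called 2, AstA and Proc, and DESeq2 called 4, beside the background of 1.21% by limma, 1.22% by edgeR and 5.14% by DESeq2. In 4 precursors (AstA, Proc, FMRFa and Tk) all EA libraries lay above all WT libraries, beside a background of 3.96% of all genes tested in that direction and against 0 of 36 receptors.

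AstA, the precursor of allatostatin A, had 391, 369, 352 and 316 in EA, against 236, 251, 247 and 232 in WT. All EA libraries exceeded all WT libraries (log2 fold change 0.56, limma adjusted p = 0.0191). Its receptors AstA-R1 and AstA-R2, with log2 fold changes of -0.01 and -0.58, were not called. The adjusted p of AstA was 0.0288 to 0.0709 when 1 library at a time was left out, exceeding 0.05 without EA replicate 1 and without each of the WT libraries.

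Proc, the precursor of proctolin, had 748, 648, 635 and 518 in EA, against 389, 417, 423 and 427 in WT. The lowest EA library was above the highest WT library (log2 fold change 0.61, limma adjusted p = 0.0361). Proc-R had 429, 368, 299.8 and 387 in EA, against 405, 387, 447 and 408 in WT, and its log2 fold change was -0.16 (95% interval -0.41 to 0.10). The adjusted p of Proc was 0.0189 to 0.118 when 1 library at a time was left out, and was under 0.05 only without EA replicate 4. Calls of both precursors also ended when levels were scaled to the neuron markers (adjusted p = 0.578 for AstA and 0.517 for Proc), with log2 fold changes of 0.49 and 0.54. The markers used in that scaling include Syt1, itself higher in every EA library than in any WT library (log2 fold change 0.95, limma adjusted p = 0.0557). Over the 18 markers the median was 0.004.

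FMRFa, the precursor of FMRFamides, had 192, 201, 199 and 168 in EA, against 127, 145, 92.8 and 125 in WT. Tk, the precursor of the tachykinins, had 682, 729.5, 531 and 621 in EA, against 495, 467, 459.6 and 433 in WT. Both had separate groups but missed the threshold in limma (log2 fold changes 0.65 and 0.46, adjusted p = 0.0724 and 0.0844), and both were called by DESeq2. Their receptors FMRFaR (0.19) and TkR99D (-0.18) were not called by limma, edgeR or DESeq2. The difference between the change of a precursor and that of its receptor was not tested.

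**Figure D5:**
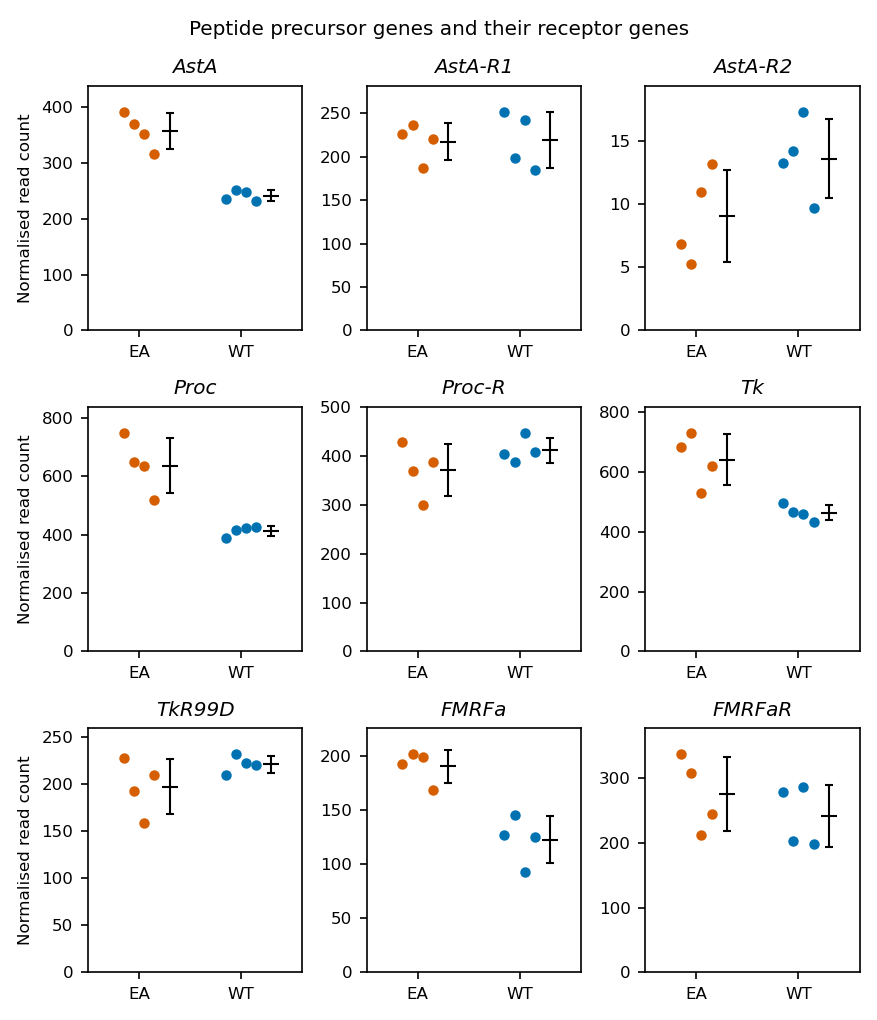
Normalised read counts of 4 precursor genes whose EA libraries all lay above their WT libraries (AstA, Proc, Tk and FMRFa), each followed by its receptor genes (points are libraries, EA left of WT, linear axes from 0; black marks are mean and SD of 4). The groups overlap in each of the 5 receptors shown.

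At an unadjusted p under 0.05 there were 7 of 26 precursors higher in EA and 2 lower, beside the backgrounds of 7.0% and 5.65%. Besides those described, Crz, CCAP and CCHa1 had log2 fold changes of 0.46, 1.29 and 0.54, and Dsk and CNMa of -0.45 and -0.86 (limma adjusted p of 0.216 or more). The fold changes of their receptors were CrzR 0.08, CCAP-R -0.30, CCHa1-R -0.36, CCKLR-17D1 -0.32, CCKLR-17D3 -0.004 and CNMaR 0.29. For CCAP, CCHa1 and CNMa the receptor had the opposite sign to the precursor, and no receptor of these 6 was called. The precursor CCAP was scarce, with 9 to 27 whole reads in the EA libraries and 1 to 18 in the WT libraries, and its groups overlapped.

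Genes that process peptides or act below the receptors were likewise not called by limma. All 11 peptide processing and vesicle genes in the table were tested (7 above 0, 4 below, median 0.00), with 0 called, 0 at an unadjusted p under 0.05 and 0 by edgeR or DESeq2. Among 31 tested genes of G protein signalling (16 above, 15 below, median 0.00), limma and edgeR called 0 and DESeq2 called 3 (Galphaq, Gbeta76C and Galphaf), beside backgrounds of 1.21%, 1.22% and 5.14%. At an unadjusted p under 0.05 there were 2 higher in EA and 4 lower, beside backgrounds of 7.0% and 5.65%. The smallest adjusted p was that of Galphaq, the G protein alpha subunit of phototransduction and of many peptide receptors, with 10171, 9541, 8483 and 9136 in EA, against 7060.5, 6061, 7047 and 7243 in WT (log2 fold change 0.45, limma adjusted p = 0.0535). Eye markers were mostly higher in EA too, with 16 of 17 log2 fold changes above 0. Arr1, Arr2 and inaC were called, each losing the call in 3 or more of the 8 fits that left out 1 library. The summed level of the list was 414188 to 481532 in EA, against 301812 to 369626 in WT. Between EA libraries the orders differed: the sum was lowest in EA replicate 1, where Galphaq was highest, and highest in EA replicate 3, where Galphaq was lowest. Whether the level of Galphaq follows that of the eye was not tested. Gbeta76C, the G protein beta subunit of phototransduction, was also higher in every EA library than in any WT library (0.50, limma adjusted p = 0.0844). Galphaf, another alpha subunit, lay the other way, with 34.4, 50.1, 39.4 and 47.0 in EA, against 58.2, 96.3, 109 and 87.9 in WT, so that all EA libraries were below all WT libraries (log2 fold change -1.001, limma adjusted p = 0.0635).

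The receptors most like this family in kind are those of small transmitters, of which 24 were in the table and 23 tested. By limma and edgeR 0 were called and by DESeq2 1, with 1 at an unadjusted p under 0.05 (TyrRII, -0.86, limma adjusted p = 0.125). Their median log2 fold change was -0.03, against -0.02 in the neuropeptide receptors, with 7 above 0 and 16 below, against 13 and 23. No test of the difference between the lists was made.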

How the data were processed

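Heads of 3-day-old males were sequenced in 4 EA and 4 WT libraries. The labels describe removal of ribosomal RNA (although 1 field calls the molecule polyA RNA), a KAPA library kit and paired-end reads. The submitters' processing notes name TopHat, featureCounts, Subread and DESeq2 and the builds dm3 and BDGP5, with versions and strand settings not given in the sources used here. The deposited values are a signal, read counts per gene that the authors had divided by a DESeq2 size factor. The deposited table also holds the authors' own mean, log2 fold change, error, statistic and p-values, which were not used.

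Because the deposited signal is not a count, the main test was limma 3.58.1 (R 4.3.3; lmFit, eBayes with trend, two-sided) on log2(value + 1) with no covariate beside group, for genes with a mean of at least 10. Every value was a whole multiple of the value of 1 read in its library (100% of values, within 0.1 read), so whole reads were recovered for edgeR 4.0.16 and DESeq2 1.42.0 as alternatives, with other scalings, pseudocounts and filters, a replicate block and leave-one-out fits. The main limma fit and the edgeR and DESeq2 fits were tested on simulated data, and the other alternatives were not. Symbols, exon lengths and distances came from Ensembl BDGP6.54 (release 115), which matched 14023 of 14622 identifiers (95.9%) and was not used to recount. Identifiers without a match stayed in the fit.

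The members and gene lists were chosen with earlier results of these data known. The naming rule gave values per library for members called or with an unadjusted p under 0.05 or separate groups, the 5 highest and 5 lowest per kb in WT, paralogous or adjacent pairs, called genes of the other lists, and ligands of such members. FMRFa, Tk, Galphaq, Gbeta76C, Galphaf and CCHa2-R were chosen after their values were seen, as were the members described as high or low in single libraries. Vha100-4, a midgut marker, was called too and is not described further.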

Additional observations from a re-analysis of the deposited data

Results flagged for a closer look

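In 110 groups of 4 libraries (the receptors and the other named genes, EA and WT apart), 6 had 1 library further from the other 3 than Dixon's 95% limit, where chance flags about 1 in 20. EA replicate 3 was the low library for AstC-R1 (108, the others 173 to 183), CapaR (4.38, the others 14.3 to 16.0) and hec (55.8, the others 73.3 to 75.2), and the high one for the precursor CNMa (20.8, the others 12.6 to 13.8). EA replicate 1 was high for CrzR (314, the others 218 to 229), and WT replicate 1 for PK2-R2 (35.7, the others 22.7 to 23.7). All values are normalised read counts.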

How the results depend on the processing

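None of the 36 receptors was called by limma under any of the 19 alternatives, the edgeR and DESeq2 fits included (30 receptors with a minimum mean of 50), and the smallest adjusted p was 0.0982. Over all genes tested, 125 were called in the limma fit described, against 31 with scaling to neuron markers, 79 with a minimum mean of 50, 532 with DESeq2, 19 without WT replicates 2 and 4, and 36 to 184 when 1 library was left out (36 without WT replicate 2, 184 without EA replicate 2). A replicate block gave 26 called genes and 0 receptors, but libraries of the same number deviated together by r = -0.227 to 0.189, so the numbers do not pair them. No scaling moved the median of all genes by 0.1 or more. The cause of these shifts was not tested.

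The sign of the log2 fold change held in 23 receptors and turned in 13, in 46 of 678 values. In those 13 the value fitted on all libraries was -0.13 (AstC-R1) to 0.19 (FMRFaR). With TMM scaling AstA-R1 was 0.005, CCKLR-17D3 0.0071 and Lgr1 0.0033. With edgeR AstA-R1 was 0.0005, CCKLR-17D3 0.0188, ETHR 0.0154 and Lgr1 0.0109, and with DESeq2 CCKLR-17D3 was 0.0158 and ETHR 0.0074. With upper quartile scaling SIFaR was -0.0007. With neuron marker scaling AstC-R2 was -0.0445, SIFaR -0.0514 and the precursor Dh44 -0.0078. Without WT replicates 2 and 4, AstC-R2 was -0.0105, ETHR 0.0813, FMRFaR -0.061, Lgr1 0.0033, SIFaR -0.1337, TrissinR 0.0369 and the precursor Akh 1.188. Leaving out 1 library gave -0.0845 to 0.0642 for AstA-R1, -0.1966 to 0.0547 for AstC-R1, -0.1466 to 0.244 for AstC-R2, -0.0645 to 0.0769 for CCKLR-17D3, -0.0438 to 0.1308 for CrzR, -0.0801 to 0.0865 for Dh31-R, -0.1318 to 0.0968 for Dh44-R1, -0.1101 to 0.1497 for ETHR, -0.0943 to 0.0539 for Lgr1, -0.1745 to 0.0821 for NPFR, -0.0452 to 0.1128 for SIFaR, -1.3273 to 0.6059 for Akh and -0.0365 to 0.2362 for Dh44. AstA-R2 and CapaR rested on 4 to 25 reads a library.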
